A study of Mus musculus with 8 samples.

Results

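The scaffold proteins of the postsynaptic density are described here through 9 genes, *Dlg1*, *Dlg2*, *Dlg3*, *Dlg4*, *Dlgap1*, *Shank1*, *Shank2*, *Shank3* and *Homer1*. They were taken by gene name from a table of molecule counts in single cortical interneurons. They make up 9 of the 23335 gene names in the table and 22 of its 27207 rows, each row being an annotated transcript.

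Single chandelier cells (ChC) and single parvalbumin cells (Pv) were collected by hand from frontal cortex of 4 female mice labeled WT, and messenger RNA was counted cell by cell. ChC carried Nkx2.1-CreER; Ai14, in which tamoxifen (150 ul at 20 mg/ml) given at embryonic day 17.5 switches on a red reporter in cells then using the Nkx2.1 promoter, and Pv cells carried Pv-ires-Cre; Ai14, in which parvalbumin-expressing cells are marked. The tamoxifen entry also stands in the labels of the Pv samples, and no other treatment is labeled in either group. Libraries were made in 8 batches of 16 cells. ChC batches 1 and 2 came from animal 1 (postnatal day 31) and batches 3 and 4 from animal 2 (day 32), and Pv batches 5 and 6 came from animal 3 (day 29) and batches 7 and 8 from animal 4 (day 35). Mouse line and flow cell both changed with cell type, and effects of the 3 cannot be told apart. Lane 1 of each flow cell held the first animal of that type and lane 2 the second, so lane and animal cannot be told apart either.

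Excitatory synapses carry a dense protein layer beneath the receiving membrane. Dlg proteins (membrane-associated guanylate kinases) hold glutamate receptors and adhesion proteins there, Dlgap proteins bind the Dlg proteins from below, Shank proteins join the Dlgap layer to deeper components, and Homer proteins tie Shank to metabotropic glutamate receptors and internal calcium stores. Most of what is known of this layer comes from the spines of pyramidal neurons, whereas parvalbumin interneurons receive much of their excitation directly on dendritic shafts.

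Each molecule carried a varietal tag and was counted once (UMI). Levels are given in CPM, the UMI of a gene relative to all UMI of its batch after TMM scaling, and intervals around them are exact 95% Poisson intervals that cover counting error only. For a count of 0 the upper limit given is that of 3 counts. A gene was represented by its row with the most UMI, because the rows of a gene hold the same molecules. Of 3079 pairs of rows of 1 gene that lie one inside the other, the outer row had at least the count of the inner row in every cell for 3073. The counts run over the whole genomic span of a transcript, introns included. The median count rose from 77.5 UMI in the tenth of genes with the shortest spans to 412 UMI in the tenth with the longest, a smaller rise than that of span, so levels of different genes are given both per kb of span and without this division.

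Depth was 448121, 556405, 2460679 and 1123083 UMI for batches 1 to 4 (ChC), and 392580, 430860, 316540 and 797177 UMI for batches 5 to 8 (Pv). Counts were present in 126 of 128 cells, 63 of each type. The file holds no cell barcodes, so barcodes shared between libraries could not be counted.

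The labels were compared with marker genes. All 5 GABAergic interneuron markers had UMI, led by *Slc32a1*, and their summed level was lowest in batch 7, at 2455 CPM, and between 4712 and 6756 CPM in the other batches. *Pvalb* was at 140 ± 52.9 CPM (SD, n = 4) in ChC batches and 1073 ± 538 CPM (SD, n = 4) in Pv batches. The other 2 genes of the Pv cell list were less separate, *Kcnc1* at 579 ± 281 and 469 ± 247 CPM and *Kcnc2* at 299 ± 169 and 711 ± 498 CPM, in the same order. Of 6 pyramidal neuron markers, *Neurod6*, *Tbr1* and *Emx1* had no UMI in any batch. Batch 7 stood apart from the rest, with 322 CPM summed over the pyramidal list, most of it *Slc17a7* at 286 CPM, where the other batches ranged from 2.43 to 101 CPM. The summed level of the 6 astrocyte markers, led by *Slc1a2* and with *Gfap* at 0, was 709 CPM in batch 4, 686 CPM in batch 7 and between 12.1 and 329 CPM elsewhere.

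*Dlg2* and *Dlgap1* were the scaffold genes with the most molecules and were found in every one of the 126 cells. *Dlg2*, a Dlg protein that clusters channels and receptors, is counted on chromosome 7 of mm9 from 98239296 to 99597756, a span of 1358 kb. Its level was 1962, 1664, 2043 and 859 CPM in ChC batches 1 to 4 and 1825, 742, 1727 and 1416 CPM in Pv batches 5 to 8. The lowest values lay in batch 4 of ChC and batch 6 of Pv, and the types overlapped throughout. The highest batch was 2.75 times the lowest. With 10575 UMI, 5100 of them in the deeply counted batch 3, *Dlg2* ranked 26 among all genes, ahead of *Dlgap1* at rank 38. Averaged over batches, *Dlg2* and *Dlgap1* were level, at 1530 and 1528 CPM.

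*Dlgap1* encodes a partner that binds the guanylate kinase domain of Dlg proteins, and is counted on chromosome 17 from 70774132 to 71170753. Its level was 1643, 1832, 1467 and 814 CPM in the ChC batches and 1387, 2084, 1384 and 1612 CPM in the Pv batches. Batch 4 was the lowest for *Dlgap1* and the lowest of the ChC batches for *Dlg2*, while batch 6, the lowest for *Dlg2*, was the highest for *Dlgap1*. Batch 4 also had the highest summed markers of astrocytes (709 CPM), other interneurons (1251 CPM) and microglia (47.4 CPM), and their part was not tested. Its coefficient of variation over the 8 batches was 0.244, the smallest of the 9 genes, and that of *Dlg2* was 0.32. Over the 285 genes with between 3000 and 20000 UMI the median coefficient of variation was 0.529.

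*Dlg4*, the Dlg protein most closely tied to AMPA and NMDA receptors at excitatory synapses, is counted on chromosome 11 from 69832107 to 69859033 and had 3099 UMI in 113 cells. Its level was 19.7, 727, 187 and 889 CPM in the ChC batches and 1575, 240, 860 and 285 CPM in the Pv batches. Batches 1 and 2, which came from the same animal, lay at the bottom and near the middle of this range. Batch 2 was 37 times batch 1 (95% interval 18.6 to 86.2), and batch 5 was 6.56 times batch 6 (5.29 to 8.20). In batch 1 only 6 of 16 cells had a *Dlg4* UMI and the highest cell had 3, whereas in batch 2 all 16 cells had at least 2.

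*Dlg1*, which sorts receptors and channels along the secretory pathway and at the membrane, is counted on chromosome 16 from 31663529 to 31873442 with 254 UMI. It was at 22.1, 125, 37.2 and 10.7 CPM in the ChC batches and 0, 53.4, 75.3 and 26.1 CPM in the Pv batches. None of the 16 cells of batch 5 had a *Dlg1* UMI, which with 3 counts as the limit allows up to 8.32 CPM (exact 95% limit 10.2 CPM) and a share of up to 18.8% of cells with a UMI (exact Clopper-Pearson limit 20.6%). In the other batch of that animal, 11 of 15 cells had one, and the lower end of the exact 95% interval of the ratio of batch 6 to batch 5 was 4.79. *Dlg3*, an X-linked Dlg protein that carries NMDA receptors to synapses, is counted on chromosome X from 97963062 to 98013749 with 486 UMI. It was at 7.38, 5.58, 58.5 and 212 CPM in ChC and 2.77, 9.70, 33.8 and 93.9 CPM in Pv batches. All 4 batches of lane 2 (3, 4, 7 and 8) lay above the 4 of lane 1.

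*Shank1*, *Shank2* and *Shank3* encode the large scaffold proteins of the deeper layer. *Shank1* (chromosome 7, 51565634 to 51613723) had 165 UMI in all, 149 of them in batch 7. Its level was 0, 13, 1.20 and 2.68 CPM in the ChC batches and 5.55, 0, 387 and 1.19 CPM in the Pv batches. The 0 in batches 1 and 6 allows up to 7.38 and 7.28 CPM at 3 counts (exact 95% limits 9.07 and 8.95 CPM). All 16 cells of batch 7 had a *Shank1* UMI, between 1 and 33 per cell with a median of 7.5, against 1 of 16 cells in batch 8 of the same animal. Batch 7 also had the lowest summed interneuron markers and the highest pyramidal ones, and an astrocyte sum next to that of batch 4, where *Shank1* was at 2.68 CPM. Their part in the *Shank1* counts was not tested.

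*Shank3* (chromosome 15, 89330288 to 89390691) had its own high batch. Its level was 49.2, 108, 0.801 and 18.8 CPM in the ChC batches and 369, 2.43, 41.6 and 30.9 CPM in the Pv batches. In batch 5 all 16 cells had a *Shank3* UMI, with 133 UMI in all, and in batch 6 of the same animal 1 cell had 1 UMI, a ratio of 152 whose interval ran from 26.8 to 6050. In batch 5 the pyramidal and astrocyte lists summed to 13.9 and 27.7 CPM, and their part in the *Shank3* counts was not tested.

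*Shank2* (chromosome 7, 151361425 to 151608580) was the least counted member, with 162 UMI in 65 cells. It was at 41.8, 61.4, 6.81 and 33.1 CPM in the ChC batches and 22.2, 12.1, 67.5 and 22.6 CPM in the Pv batches. Batch 3 was lowest, and its interval of 3.97 to 10.9 CPM lay below those of batches 1, 2, 4, 7 and 8, while the types overlapped. The counts of batches 2 and 4 lay in another part of the gene than those of the other batches. The span before the start of the shorter row, 109 kb long, held 30 of 33 UMI in batch 2 and 28 of 37 in batch 4, but 0 UMI in batches 1, 3, 5, 6 and 8 and 1 of 26 in batch 7.

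*Homer1* (chromosome 13, 94074450 to 94174917) yields long proteins that couple receptors to Shank and a short form, made after neuronal activity, that lacks the coupling domain. It had 893 UMI and was at 22.1, 42.8, 189 and 114 CPM in the ChC batches and 2.77, 17, 317 and 157 CPM in the Pv batches. As for *Dlg3*, the 4 batches of lane 2 all lay above the 4 of lane 1. *Dlg3* and *Homer1* are thus 2 of 8 members past the count filter with this order, a pattern noticed after the values were seen, and 169 of 6283 genes past the filter had it too (2.69%). The reverse order, lane 1 above lane 2, held in a further 56 of the 6283 genes and in 0 members. The span of the short transcript, 52.3 kb, held 21 of the 893 UMI, and 872 lay beyond its end. The largest count within the short span was 8 UMI in batch 2 and 7 UMI in batch 4.

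**Figure D1:**
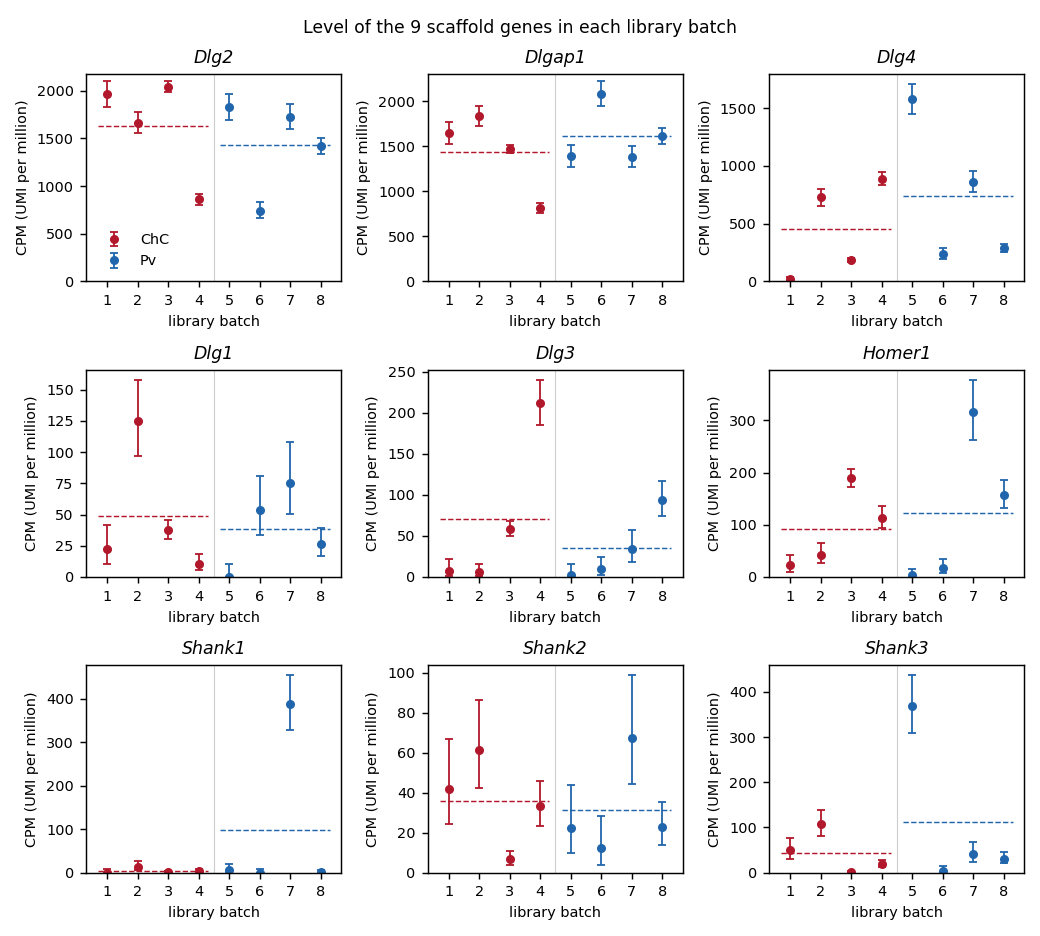
Level of each gene (vertical axis, CPM) in the 8 library batches (horizontal axis), ChC in red and Pv in blue. Bars are exact 95% Poisson intervals and dashed lines are means of 4 batches. *Dlg2* stays between 742 and 2043 CPM, whereas *Shank1* reaches 387 CPM in batch 7 and at most 13 CPM in any other batch.

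Ordered by level per kb of span, averaged over the 8 batches, *Dlg4* came first at 22.2 ± 19.1 CPM per kb (SD, n = 8), followed by *Dlgap1* at 3.85 ± 0.941. *Shank3* (1.28 ± 2.03), *Dlg2* (1.13 ± 0.36), *Homer1* (1.07 ± 1.09), *Shank1* (1.07 ± 2.82) and *Dlg3* (1.04 ± 1.42 CPM per kb) came next and did not differ beyond their spread. *Dlg1* (0.208 ± 0.193) and *Shank2* (0.135 ± 0.0894 CPM per kb) came last, and these also overlapped. Each gene overlapped in range with the next in order, *Dlg4* and *Dlgap1* included. The order depends on the division, as *Dlg4* has the shortest span of the 9 (26.9 kb). The division is by the counted span, which starts 588823 bases inside the GENCODE gene for *Dlg2* and 455719 bases inside it for *Dlgap1*. Without division *Dlg2* (1530 CPM) and *Dlgap1* (1528 CPM) lead and *Dlg4* follows at 598 CPM. The means of *Shank1*, *Shank3* and *Dlg3* rest much on 1 batch each, and by the median over batches *Shank1* comes last at 0.0404 CPM per kb, *Shank3* is at 0.6 and *Dlg3* at 0.429.

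ChC and Pv cells were then compared with UMI summed per animal, 2 animals against 2, in edgeR's quasi-likelihood test over all genes. Of the 9 members, 8 passed the filter on low counts, *Shank1* being left out, and 0 of these 8 passed an adjusted p of 0.05. The background was the same, with 0 of 9681 genes called (0%). At an unadjusted p under 0.05 the test had 618 genes (6.38%) and 0 of the 8 members. DESeq2 called 165 of 10121 genes and 0 of 9 members. At an unadjusted p under 0.05 it had 1281 genes, 7.75% of the 16531 genes with any UMI. It also had 1 member, *Shank1*, whose log2 fold change of -3.82 rests on batch 7. The spread behind this comparison was wide, with a biological coefficient of variation of 0.873.

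For *Dlg2* the ChC to Pv log2 fold change was 0.31 (standard error 0.41, adjusted p = 0.989) and for *Dlgap1* it was -0.15 (standard error 0.42, adjusted p = 0.997), both with edgeR's quasi-likelihood test and Benjamini-Hochberg adjustment. For *Dlg4* it was -0.70 (standard error 0.56, adjusted p = 0.96), and without batch 5 it was 0.17. The other members were less precise, with standard errors from 1.25 to 1.62. *Dlg1*, *Dlg3* and *Shank2* were at 0.62, 0.44 and 0.32, and *Shank3* and *Homer1* at -1.25 and -0.14. Leaving out 1 batch turned the sign of most estimates. *Shank3* went to 1.20 without batch 5, *Dlg1* to -0.40 without batch 2, *Dlg3* to -0.28 without batch 4, *Shank2* to -0.34 without batch 8, *Homer1* to 0.20 without batch 7 and *Dlg2* to -0.0516 without batch 3. *Dlgap1* kept its sign in each of these fits. The median over the 8 members was 0.09, and over all genes tested it was 0.05.

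In plain terms, none of the scaffold genes could be placed above or below in one cell type at this precision. A difference of 2-fold in *Shank* or *Homer1* levels lies within 1 standard error. The batches gave the same picture without a test. In 0 of the 8 members did the 4 ChC batches all lie above or all lie below the 4 Pv batches, and 304 of 6283 genes were separated in this way (4.84%).

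The batches of 1 animal also differed. Levels were compared between these batches for genes with at least 30 UMI over both, with counts under 3 set to 3, a rule chosen after the data were seen. In animal 1, 2 of 7 members were at least 4-fold apart (*Dlg1* and *Dlg4*), as were 48.3% of all 5493 genes. In animal 2 it was 2 of 7 (*Dlg4* and *Shank2*; 36.2% of 9557 genes), in animal 3 it was 2 of 4 (*Dlg4* and *Shank3*; 51.5% of 4803 genes), and in animal 4 it was 1 of 9 (*Shank1*; 31.1% of 6644 genes). The scaffold genes did not stand out from the table in this respect. Summed over animals, 7 of 27 combinations of member and animal were 4-fold apart (25.9%), against 40.2% of 26497 for all genes. *Dlg4* was apart in animals 1, 2 and 3, and *Dlg2* and *Dlgap1* in none of the 4 animals.

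Scatter between the cells of 1 batch was also measured. For each gene, the scatter of its UMI among cells around the number set by their depth was taken as a chi-square per degree of freedom, for which counting error alone gives 1. Over genes with at least 100 UMI its median was between 0.991 (batch 3) and 1.25 (batch 7). For *Shank1* in batch 7 it was 1.94, above 85.8% of the 585 genes there, and for *Shank3* in batch 5 it was 1.99, above 95.7% of 972 genes. Larger values were found for *Dlg4*, at 2.75 in batch 4 (above 97.6% of genes) and 2.39 in batch 5 (98.1%), and for *Dlg2*, at 2.51 in batch 3 (98.3%) and 2.52 in batch 7 (95.2%). Both genes also had low values, 0.62 for *Dlg4* in batch 2 and 0.48 for *Dlg2* in batch 4. *Dlgap1* ranged from 0.483 in batch 2 to 1.62 in batch 3, and *Homer1* from 0.736 in batch 3 to 2.28 in batch 7.

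Depth sets the share of cells in which a gene is seen, so each cell was thinned to 10000 UMI, which left out 15 ChC and 8 Pv cells below that depth. A ChC cell then showed 4.51 ± 0.873 of the 9 genes (SD, n = 4 batches) and a Pv cell 4.90 ± 1.31 (n = 4), or 4.31 without batch 7. Unthinned, both types showed 5.84. Among thinned cells, batch 7 had the most, 6.70, and batch 1 the fewest, 3.33. *Dlg2* and *Dlgap1* were expected in over 99% of thinned cells in every batch. For *Dlg4* the share was 74.0 ± 39% in ChC and 95.8 ± 5.58% in Pv batches, with batch 1 at 17.5% and batch 3 at 78.9%. Without thinning the shares for *Dlg4* were 81.2% and 98.3%.

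*Homer1* was expected in 47.8 ± 30.5% of thinned ChC and 47.4 ± 47.8% of thinned Pv cells, with a range over Pv batches from 1.34% to 97.3%. *Shank1* went from 0% to 98.4% over the Pv batches and no higher than 9.72% in a ChC batch. *Shank3* ranged from 3.15% to 62.5% in ChC and from 5.28% to 96.5% in Pv batches. For all 3 genes the spread over the Pv batches exceeded the difference between the types. Their unthinned shares were 67.2% and 56.7% for *Homer1*, 14.4% and 29.7% for *Shank1*, and 44.7% and 57.9% for *Shank3*, in ChC and Pv in that order.

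**Figure D2:**
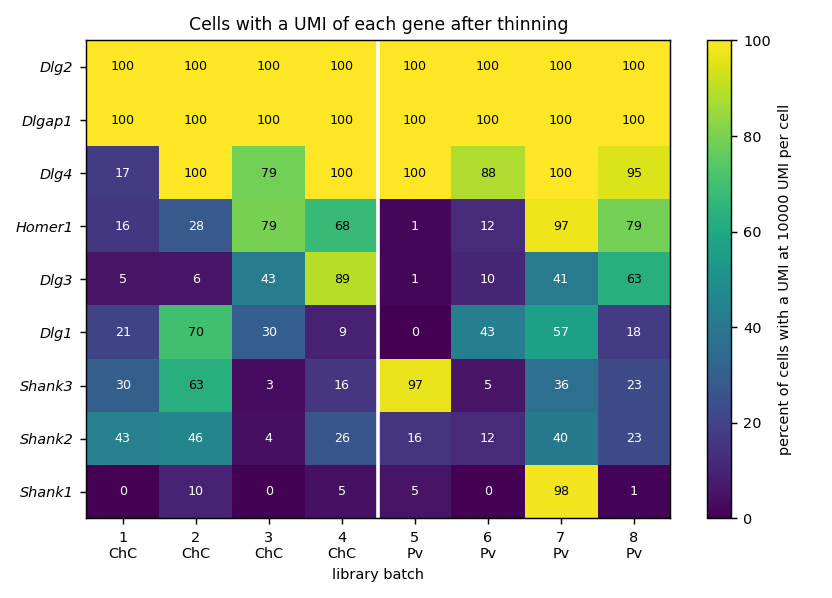
Percent of cells expected to show a UMI of each gene (rows) in each batch (columns) when every cell is thinned to 10000 UMI. *Dlg2* and *Dlgap1* are near 100 in each batch, and *Shank3* goes from 3.15 in batch 3 to 96.5 in batch 5.

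Where the molecules lay within a gene was read from the differences between rows with different starts and ends. *Dlgap1* divides into 4 stretches on chromosome 17. The last, from 71166070 to 71170753, makes up 1.18% of the span and held 3250 of 9476 UMI, or 694 UMI per kb. In the GENCODE annotation of the same build, exons cover 72.4% of this stretch. The long stretch before it, 255 kb with 2.62% exon, held 4859 UMI, or 19.1 per kb. The last stretch made up 31.9 ± 3.62% of *Dlgap1* UMI over ChC batches (SD, n = 4) and 41.6 ± 6.85% over Pv batches (SD, n = 4). These overlapped, at 28.8 to 36.4% and 32.5 to 47%, and the difference was not tested.

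The 4 *Dlgap1* stretches differed in how even they were between batches. The 255 kb stretch went from 411 to 1016 CPM, and the last went from 234 to 973 CPM, a 4.15-fold range. The second stretch, 39.6 kb, was less even, with 9.51 CPM in batch 8 and 143 CPM in batch 3. The first stretch, 97.3 kb, ranged from 5.55 CPM in batch 5 (2 UMI) to 244 CPM in batch 2. In batch 1, of the same animal as batch 2, the first stretch was at 29.5 CPM. It was at 183 CPM in batch 8 and 20.8 CPM in batch 7. It held 798 of the 9476 *Dlgap1* UMI.

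*Dlg2* divides into 3 stretches on chromosome 7. The first, 972 kb with 0.411% exon, held 6940 of 10575 UMI and went from 449 to 1409 CPM, a 3.14-fold range. The middle stretch, 173 kb, was at 541, 357, 276 and 127 CPM in the ChC batches and 216, 24.3, 205 and 367 CPM in the Pv batches. The last, 214 kb with the 3′ end of the gene, held between 3.38% (batch 1) and 48.8% (batch 5) of the *Dlg2* UMI. All 3 stretches are at most 2.6% exon, and the first, with 71.5% of the span, had the fewest UMI per kb (7.14, against 9.96 and 8.95). The 3′ stretch differed 13.4-fold between batches.

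**Figure D3:**
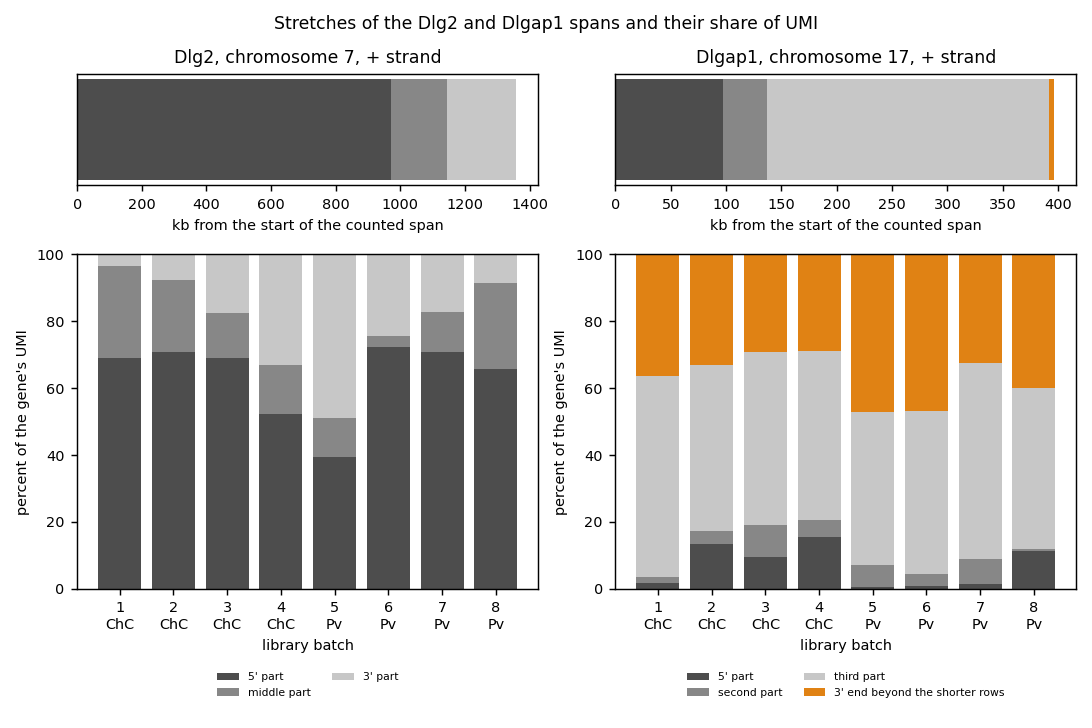
Stretches of the counted spans of *Dlg2* (3, left) and *Dlgap1* (4, right), drawn to scale above in kb, and the percent of the gene's UMI in each (vertical axis) by library batch below. The orange stretch of *Dlgap1*, 1.18% of its span, holds between 28.8% and 47% of its UMI.

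Because the libraries were primed at poly(A) tails, the ends of the annotated transcripts are of interest. The last 30 bases before the ends of the shorter and longer *Dlgap1* rows and of the short and long *Homer1* rows were read from the mm9 genome, plus strand, where these genes lie. Capitals mark the polyadenylation signal AATAAA or its variant ATTAAA, searched on the strand of the gene. The shorter *Dlgap1* rows end at 71166069, the longer at 71170753, and the short and long *Homer1* rows at 94126785 and 94174917.
Dlgap1 shorter end, chr17:71166040-71166069: ataacaatAATAAAgtgtgcaaagaaagaa
Dlgap1 longer end, chr17:71170724-71170753: attAATAAAataatcaatgcacttctttca
Homer1 short end, chr13:94126756-94126785: gATTAAAaattgcaaagtgagatatttcaa
Homer1 long end, chr13:94174888-94174917: aacaaaaatacagtttttattttgaaatac

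Both *Dlgap1* ends hold AATAAA and the short *Homer1* end holds ATTAAA, while these letters are not in the window at the long *Homer1* end, beyond whose short counterpart 872 UMI were counted. Over 26564 distinct row spans of the table, 47.7% had AATAAA and 13% had ATTAAA in this window, and 59.3% had either. Of the 11 distinct ends of member rows 6 had either, and those of *Dlg2*, *Dlg4*, *Shank1* and *Shank2* had neither. Member rows with a shared end count once here, whereas row spans with a shared end count separately in the share over the table.

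Member genes were also examined in networks of Spearman correlations over the cells of each batch, ranked over all pairs of 23335 genes so that 0.5 is the middle. In these networks CPM is the UMI of a gene relative to all UMI of its cell, without TMM scaling. With UMI as input the 36 member pairs had a mean rank of 0.825 ± 0.118 (SD, n = 8 batches), and with CPM 0.532 ± 0.0581. Undefined correlations, set to 0, share 1 rank near the middle, so weak correlations also lie far from it. In batch 1 with UMI, *Dlg3* and *Dlg4* had a correlation of 0.049 and a rank of 0.869. In batch 5 with CPM, *Dlgap1* and *Shank2* had 0.023 and 0.912. Member pairs were not compared with other pairs of like level. The highest ranked pair with UMI was *Dlg2* with *Dlgap1*, at a mean rank of 0.998 and a mean correlation of 0.92 over batches. With CPM that pair had a mean rank of 0.488, above 0.5 in 4 of 8 batches, and correlations from -0.72 to 0.71. The cells of a batch share their library and differ in depth. The mean rank with CPM was between 0.466 (batch 7) and 0.629 (batch 8), an average over pairs far apart, since single ranks of *Dlg2* with *Dlgap1* went from 7.4e-05 to 0.998.

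With CPM the highest mean rank was that of *Dlg1* with *Shank3* (0.85), followed by *Shank2* with *Homer1* (0.837), *Dlg3* with *Shank2* (0.825) and *Dlg3* with *Homer1* (0.822). Mean correlations of these pairs were between 0.16 and 0.27 over 16 cells or fewer per batch and on sparse counts, and nothing is read from them.

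Across the 8 batches, the genes whose level was most like that of *Dlg2* among 6282 others were *Baz2b* (Pearson r = 0.966 on log2 of CPM + 1) and *Ftsjd2* (r = 0.952). For *Dlgap1* they were *Iqck* (0.974) and *Fam5b* (0.926), and for *Dlg4* they were *Erp44* (0.977) and *Golph3* (0.973). The batches share animals and lanes, so these are descriptions. *Erp44* was at 0 CPM in batch 1 and at 544 CPM in batch 5, the lowest and highest batches of *Dlg4*.

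Other genes of the same synaptic layer showed the same lack of calls. Of 32 listed, 31 were in the table, 29 were tested and 0 passed the adjusted threshold in either direction, with a median log2 fold change of 0.10. At an unadjusted p under 0.05 edgeR had 2 of these 29 genes, where all genes tested had 6.38%. The 3 genes of the list with the most UMI were *Grip1*, *Magi2* and *Dlgap2*. *Grip1*, which binds AMPA receptor tails, was at 1183 ± 351 CPM (SD, n = 4) in ChC and 661 ± 181 CPM (n = 4) in Pv batches, with a log2 fold change of 0.88 (standard error 0.47, adjusted p = 0.847 with edgeR). *Dlgap2*, a relative of *Dlgap1*, was at 675 ± 263 and 531 ± 195 CPM. *Magi2*, a membrane-associated guanylate kinase, was at 967 ± 523 and 1101 ± 562 CPM.

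The glutamate receptors and adhesion partners that these scaffolds hold were examined as well. Of 16 listed genes 15 were tested, 0 passed, and 9 estimates were above 0. *Erbb4*, the neuregulin receptor that binds *Dlg4* protein, was at 4615 ± 821 CPM (SD, n = 4) in ChC and 1749 ± 262 CPM (n = 4) in Pv batches. Its log2 fold change was 1.37 (standard error 0.36, adjusted p = 0.582 with edgeR). The AMPA receptor subunit gene *Gria1* was at 2525 ± 1141 and 767 ± 307 CPM (log2 1.59, standard error 0.42), and *Gria4* at 1579 ± 753 and 544 ± 268 CPM (log2 1.54, standard error 0.47). In these 3 genes the lowest ChC batch lay above the highest Pv batch, which makes 3 of the 12 genes of this list past the count filter. It did so in *Agap2* and *Cttnbp2*, 2 of 27 such genes of the list before, and over all genes past the filter 4.84% did not overlap in either direction. *Agap2*, *Cttnbp2* and *Grin2a* were named after their values were seen. Adjusted p-values for *Gria1* and *Gria4* were 0.582 and 0.59 with edgeR.

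The unadjusted p was 0.0043 for *Erbb4*, 0.0044 for *Gria1* and 0.0096 for *Gria4* in the edgeR fit, and with DESeq2 it was 0.113, 0.0716 and 0.0826, or 0.609, 0.504 and 0.533 after adjustment. The NMDA receptor subunit gene *Grin2a* went the other way, at 27.7 ± 19.2 CPM in ChC and 179 ± 169 CPM in Pv batches (log2 -2.79, standard error 1.22, unadjusted p = 0.0498). These are the 4 of 15 tested genes of the list with an unadjusted p under 0.05 in edgeR, where all genes tested had 6.38%. With DESeq2 only 1 of the 16 genes, *Grin2a*, was under it, and its adjusted p was 0.257. Of the 8 tested scaffold genes 4 had estimates above 0 and 4 below. Whether receptor and scaffold genes differ in their change was not tested.

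At inhibitory synapses *Gphn* encodes gephyrin, the scaffold under GABA and glycine receptors, and *Nlgn2* an adhesion protein. Neither passed the adjusted threshold. *Gphn* was at 706 ± 519 CPM (SD, n = 4) in ChC and 371 ± 247 CPM (n = 4) in Pv batches, and *Nlgn2* at 79.9 ± 48.2 and 46.9 ± 22.9 CPM. The types overlapped in both.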

How the data were processed

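Single labeled cells were picked by hand, amplified in 2 linear rounds and sequenced in 8 batches. The authors aligned reads to mm9 with Bowtie 0.12.7, counted each varietal tag once per gene and deposited these counts per transcript and cell without normalization. In the deposited counts every per-sample column was used, apart from 2 cells without a count.

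The row with the most UMI stood for each gene. Summing all rows of a gene name, which counts molecules repeatedly, was an alternative. UMI were summed per animal and tested with edgeR 4.0.16 (TMM, filterByExpr, quasi-likelihood, Benjamini-Hochberg over all genes, threshold 0.05), with DESeq2 1.42.0 as an alternative, in R 4.3.3. Networks used the mean over rows, with undefined correlations set to 0, and their CPM were scaled to the total of each cell. Other steps used Python 3.11.15, NumPy 2.4.6 and SciPy 1.17.1. Methods were tested on simulated data. For edgeR these had a biological coefficient of variation well below the 0.873 of the real counts. Its power at the real spread was therefore not tested. Of 26711 distinct row spans, 26564 lay inside a chromosome of the reference genome, and starts were converted to count from 1.

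The 9 genes and the other gene lists were chosen with earlier results of these data known. Named are all 9 genes, the 3 genes with the most UMI of each excitatory list, 2 genes of inhibitory synapses, any that passed, *Agap2*, *Cttnbp2* and *Grin2a* after their values were seen, and the 2 genes most like each of the 3 most counted members. Marker lists not described in the report were as follows. Summed levels were at most 110 CPM for oligodendrocytes (led by *Mbp*, *Mobp* at 0), 16.6 CPM for their precursors (*Pdgfra*, *Cspg4* at 0), 47.4 CPM for microglia (*Ctss*, *C1qa* and *Tmem119* at 0) and 18.6 CPM for endothelium (*Flt1*, *Cldn5* at 0) in any batch. The 3 medial ganglionic eminence markers, led by *Sox6*, summed to 196 to 794 CPM, the 3 Pv cell markers, led by *Kcnc1*, to 655 to 2890 CPM, and the 6 markers of other interneurons, led by *Cck* and with *Vip* at 0, to 63.9 to 1251 CPM.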

Additional observations from a re-analysis of the deposited data

Results flagged for a closer look

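In 18 groups of 4 batches, 9 genes in each cell type, 2 had a batch far from the other 3 by Dixon's test, which flags about 1 in 20 groups of normal values by chance. The same held for 17.9% of 14321 such groups over all genes with at least 162 UMI, a share above that of the 9 genes. *Shank1* was at 387 CPM in Pv batch 7 and at most 5.55 CPM in the other Pv batches. *Shank3* was at 369 CPM in Pv batch 5 and at most 41.6 CPM in the other Pv batches. Both high values were shared by all 16 cells of their batch, and neither was seen in the other batch of the same animal.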

How the results depend on the processing

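No alternative called a member, and no member was without overlap between the types under library totals, summed rows or deeper cells. The count of all genes called, 0 with edgeR over animals, was 165 with DESeq2, 84 without a filter and 6 with batches as samples, and 0 to 96 with a batch or animal left out (2 without batch 4, 2 without batch 5, 1 without batch 7, and 15, 60, 14 and 96 without animals 1 to 4). In 3 fits added after the data were seen it was 7 with lane as replicate block, and without a filter 20 with batch 7 left out and 136 with animal 4 left out. With 1 animal left in a group, it is assumed to vary like the other group. The sign of a member's fold change turned in 26 of 183 alternatives, none past the threshold. Summed rows gave -0.18 and distinct rows -0.15 for *Shank2*. Leaving out a batch or animal gave -0.40 to 1.30 for *Dlg1*, -0.0516 to 0.56 for *Dlg2* and -2.66 to 3.09 for *Dlg3*. It gave -1.64 to 0.17 for *Dlg4*, -0.40 to 0.0727 for *Dlgap1* and -0.85 to 0.97 for *Shank2*. For *Shank3* the range was -4.04 to 1.20 and for *Homer1* it was -1.68 to 3.24. Without animal 4 and also without a filter, *Dlg3* was at 3.20 and *Homer1* at 3.34. Without batch 7 and also without a filter, *Homer1* was at 0.23. With lane as block *Homer1* was at 0.62. *Shank1*, tested when no filter was used, was at -3.84 (unadjusted p = 0.0387, adjusted p = 0.513). This rests on batch 7, as fits that keep it gave -5.17 to -3.05, and the estimate was 1.14 (standard error 2.14) without batch 7 and 0.70 (standard error 2.68) without animal 4. Members per cell were 5.84 in both ChC and Pv cells without thinning, and 4.31 in thinned Pv cells without batch 7. With undefined correlations at rank 0 the mean rank was 0.645 with UMI and 0.447 with CPM. A 2-fold rule in place of 4-fold between batches of an animal, added after the data were seen, gave 17 of 27 combinations (63.8% over all genes), and an 8-fold rule 3 of 27 (24.4%). Where no cause is named, the cause was not tested. The labels pair no samples across the types, and lanes with the same number lay on different flow cells, so the block is by lane number alone. Counts under about 10 UMI in a batch leave *Dlg1*, *Dlg3*, *Shank1*, *Shank2*, *Shank3* and *Homer1* imprecise in several batches.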
